A study of Mus musculus with 8 samples.

Results

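Retinoic acid signalling was followed through 9 genes in forebrain tissue (cerebral cortex with striatum) of mice of the BTBR/R and B6 strains. The genes were taken by name, as every probe whose annotated gene was 1 of 3 retinaldehyde dehydrogenases (Aldh1a1, Aldh1a2 and Aldh1a3), 2 binding proteins (Rbp4 and Crabp1), 3 nuclear receptors (Rara, Rarb and Rxrg) or the breakdown enzyme Cyp26b1. They were 9 of the 37074 gene names on the array and had 16 of its 56605 probes. BTBR/R is the BTBRTF/ArtRbrc subline of the inbred BTBR mouse, of which another subline, BTBR/J, is widely used as a model of autism spectrum disorder, and B6 is the inbred strain C57BL/6J. RNA from 4 male mice of each strain was hybridised, 1 mouse per array. Their age was 4 months, but 6 months for BTBR/R replicate 1. The labels name no transgene and no treatment, the groups differ by strain over the whole genome, and cortex and striatum were measured as 1 tissue sample.

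Retinoic acid is made from vitamin A. Retinol travels in blood on the carrier Rbp4, is taken up and bound inside cells, and is oxidised first to retinaldehyde and then, by the retinaldehyde dehydrogenases, to retinoic acid. Retinoic acid enters the nucleus and binds dimers of a RAR and an RXR receptor, which sit on DNA at paired hexamers and switch target genes on, and enzymes of the Cyp26 family remove it. In the adult forebrain the striatum is known for high levels of Rarb and Rxrg, and the meninges and dopamine axons are known sources of the synthesising enzymes.

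Signals are given as scaled log2 signal, the log2 of the processed intensity minus the 75th percentile of its array, so that 0 is the level of that percentile and 1 unit is 2-fold. A change is the BTBR/R mean minus the B6 mean on that scale, and a probe was called at a Benjamini-Hochberg adjusted p below 0.05 over all 56605 probes (limma) with a change of at least 2-fold. A probe was detected on an array where the scanner software flagged it as well above background. BTBR/R arrays detected 53.5% to 57.2% of probes and B6 arrays 64.5% to 66.8%, and the lowest detected signal lay between -3.97 and -3.55 on the BTBR/R arrays and between -5.28 and -4.98 on the B6 arrays. Over the 28547 probes detected on all 8 arrays the median change was 0.00. Scaling to the 75th percentile of each array's own detected probes instead moved that median to -0.47 and every change by the same amount, and scaling to spike-in controls moved it to 0.12, so the changes below are relative to the median detected probe. The arrays sat on 1 slide with the strains in separate columns of it, so the position on the slide and the strain cannot be told apart. The p-values measure the spread between the mice, and the tissue does not separate fewer cells of a type from less RNA per cell.

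The 16 probes fell into 3 classes of detection. Detection on all 8 arrays was seen for 12 probes of 8 genes, 1 probe of Aldh1a3 was detected in all 4 B6 mice but in none of the BTBR/R mice, and 3 further probes of Aldh1a3 and Rarb were detected on no array. Of the 16 probes 4 were called, against 22.4% of all probes on the array. The 1 called lower was the Aldh1a3 probe that stood above background in B6 mice alone. Lower calls made up 2.27% of all probes, whatever their detection. The share among probes seen in B6 mice alone is not given, so the 2.27% does not measure how rare this call is. None of the 12 detected probes was called by limma at 2-fold, against 2.20% of all probes detected on all 8 arrays. The methods' t-test also called 0 of the 12, and limma with trend and robust settings and the spike-in scaling each called 1, an upstream probe of Rarb. At an adjusted p below 0.05 of any size, 4 of the 12 were higher in BTBR/R mice, against 13.0% of all such probes, and 0 were lower, against 13.9%. The 4 included both Rara probes, and probes of 1 gene read in the same mice are not independent. With arrays scaled to their detected probes, which shifts every change alike, 0 were higher, against 1.82% of all such probes, and 6 lower, against 84.7%. At an unadjusted p below 0.05, 7 of the 12 were higher, against 17.7% of all such probes, and 0 were lower, against 18.2%. The median change of the 12 probes was 0.26. Values of the 2 strains did not overlap for 5 of the 12, against 32.6% of all such probes.

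**Figure D1:**
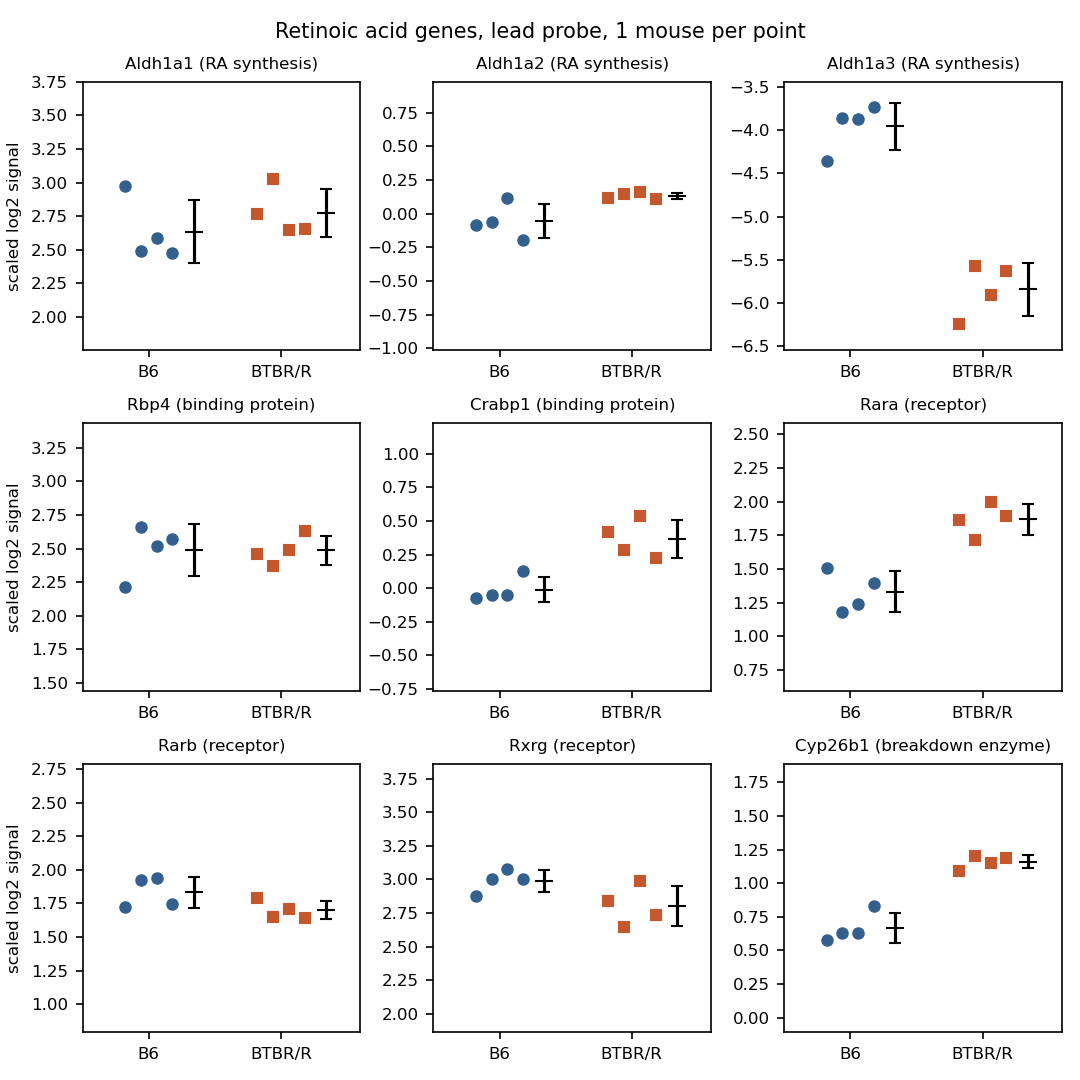
Scaled log2 signal of the lead probe of each of the 9 genes, with 1 point per mouse for B6 (circles) and BTBR/R (squares) and the mean and SD of the 4 mice beside them. Each panel has its own axis. The strains do not overlap for Aldh1a3, Crabp1, Rara and Cyp26b1, and they overlap for Aldh1a1, Aldh1a2, Rbp4, Rarb and Rxrg. When arrays were scaled to their detected probes, which shifts every change alike, Crabp1 stood at -0.10 and Aldh1a1 and Aldh1a2 were negative.

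Stretches of the probes that carried the strain differences are shown so that the measured transcript ends can be identified. The Aldh1a3 probe is shown because the whole reverse primer that the study designed for its quantitative RT-PCR of Aldh1a3 lies within it. The capitals in the probe stretch mark the 24 bases it shares with the reverse complement of that primer, and all of the primer is in capitals. In the Rara stretch the capitals mark the polyadenylation hexamer AATAAA. The other stretches are the first 30 bases of 60-base probes.
Aldh1a3 probe, bases 12 to 41: tctTAAGTTCAGATTGTGTGTTCAGCAatg
Aldh1a3 reverse primer: TGCTGAACACACAATCTGAACTTA
Rara probe, bases 19 to 48: gagatctactggagaaagAATAAAgttcta
Cyp26b1 probe, bases 1 to 30: gttcgtgtgtctcgttgtggtagcattaat
Crabp1 probe, bases 1 to 30: tcaggctcttgttgccttgtgtacccttgg
Stra6 probe, bases 1 to 30: cagcctcaggccggcagaagaagaagaagg

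AATAAA or its variant ATTAAA, read on the probe strand, was in 3 of the 16 probes (Aldh1a3, Rbp4 and Rara) and in 13.4% of all 56605 probes. The arrays' annotation places each probe within a named transcript on mm9 but does not say whether it lies in a coding or an untranslated part.

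The retinaldehyde dehydrogenases carry out the last, irreversible step to retinoic acid. Aldh1a1, a broadly expressed member that also marks a subset of midbrain dopamine neurons, was read by A_51_P334942 at chr19:20717764-20717823 (mm9, plus strand, transcript NM_013467). Its scaled log2 signal was 2.98, 2.49, 2.59 and 2.48 in the B6 mice and 2.77, 3.03, 2.65 and 2.66 in the BTBR/R mice. The ranges overlapped, and the change of 0.14 ± 0.14 (SE, n = 4 per strain) did not pass the test (limma adjusted p = 0.462, 95% interval -0.18 to 0.46). The value was -0.33 with arrays scaled to their detected probes, which shifts every change alike and put the median detected probe at -0.47. It was 0.25 under the spike-in scaling. Of 9 markers of midbrain dopamine neurons, 5 were detected on all 8 arrays, and their summed linear signal was 8.48 to 10.8 in B6 mice and 10.3 to 11.1 in BTBR/R mice. Without Th, the tyrosine hydroxylase of these neurons, the sums were 7.38 to 8.08 and 8.19 to 9.58 and did not overlap. They overlapped when Slc18a2, Ddc, Nr4a2 or Lmx1b was left out instead, with sums of 3.31 to 5.94 and 4.24 to 4.97 without Nr4a2. Of the 5, Nr4a2 was higher in BTBR/R mice at an adjusted p below 0.05 (0.28, limma adjusted p = 0.0397), and the part of these markers in the Aldh1a1 value was not tested. En1 and Foxa2, which define these neurons, were detected on no array, and Slc6a3 and Pitx3 were detected on some arrays only.

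Aldh1a2, the main retinoic acid synthesising enzyme of the embryo and of adult meninges, was read by A_52_P58145 at chr9:71143931-71143990 (plus strand, NM_009022). Scaled log2 signal was -0.09, -0.06, 0.12 and -0.19 in B6 mice and 0.12, 0.15, 0.16 and 0.11 in BTBR/R mice. B6 replicate 3 alone reached the range of the BTBR/R mice, whose SD was 0.02 against 0.13 in B6 mice. The change was 0.19 ± 0.07 (SE, n = 4 per strain) with a limma adjusted p of 0.0699. Without B6 replicate 3 it was 0.25 with an adjusted p of 0.0143. Under the scaling to detected probes, where 84.7% of all detected probes passed as lower, it was -0.28 with an adjusted p of 0.0135. The 12 meningeal and perivascular fibroblast markers, all detected on all 8 arrays, summed to a linear signal of 19.6 to 23.9 in B6 mice and 20.2 to 22.4 in BTBR/R mice. None of them was called by limma, 3 were higher, against 17.7%, and 1 lower, against 18.2%, at an unadjusted p below 0.05, and Slc22a6 and Slc13a4 were higher in BTBR/R mice at an adjusted p below 0.05 (limma). Their part in the Aldh1a2 value was not tested.

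Aldh1a3, the dehydrogenase known from the developing eye and nose and from the lateral ganglionic eminence that gives rise to the striatum, was the 1 member called lower in BTBR/R mice. Its lead probe, A_52_P87843 at chr7:73535785-73535844 (minus strand, NM_053080), gave scaled log2 signals of -4.36, -3.85, -3.87 and -3.74 in B6 mice and -6.25, -5.58, -5.91 and -5.63 in BTBR/R mice. All 4 B6 values lay above the lowest detected signal of their arrays and all 4 BTBR/R values lay below that of theirs, so the probe was not well above background in any BTBR/R mouse. The measured means were -3.96 ± 0.27 and -5.84 ± 0.31 (SD, n = 4 each), and the limma adjusted p was 0.000131. No fold is given, because the B6 mean was -0.25 relative to the mean of the lowest detected signals of the 4 BTBR/R arrays. The difference of the measured means was -0.27 (adjusted p = 0.0172) with normexp background correction and 0 where signals below the highest detection limit were set to that limit. The paper also measured Aldh1a3 by quantitative RT-PCR in cortex and striatum and reported it lower in BTBR/R mice than in B6 mice.

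The other Aldh1a3 probes were assigned to Ensembl transcripts and lie 5' of the lead probe within the gene. A_55_P2596848 at chr7:73544841-73544900 (ENSMUST00000173756) had scaled log2 signals of -7.21 to -6.91 in B6 mice and -5.90 to -5.49 in BTBR/R mice. A_52_P113518 at chr7:73553907-73553966 (ENSMUST00000174215) had -7.39 to -6.56 in B6 mice and -6.08 to -5.68 in BTBR/R mice. Neither was detected on any array, and both were called higher in BTBR/R mice, the opposite direction to the lead probe. Among the 14874 probes of the array detected on no array, 67.7% were called higher in BTBR/R mice. The calls of both were lost under normexp correction, where the changes were -0.03 and 0.05.

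**Figure D2:**
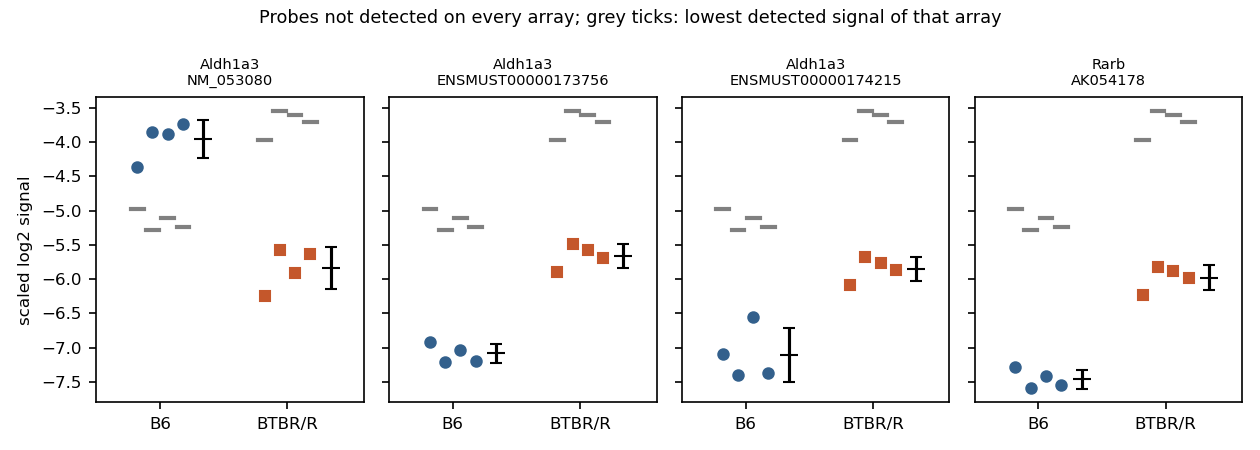
Scaled log2 signal per mouse of the 3 Aldh1a3 probes and 1 Rarb probe that were not detected on every array, with circles for B6, squares for BTBR/R and the mean and SD beside them. Grey ticks mark the lowest detected signal of each array, which lay at -5.28 to -4.98 for B6 and -3.97 to -3.55 for BTBR/R. In the Aldh1a3 probe of NM_053080 alone, the B6 points lie above their ticks.

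The binding proteins carry retinoids in blood and in cytoplasm. Rbp4, the retinol carrier of blood, was read by A_51_P374752 at chr19:38191129-38191188 (minus strand, NM_011255). Scaled log2 signal was 2.22, 2.66, 2.52 and 2.57 in B6 mice and 2.46, 2.37, 2.49 and 2.63 in BTBR/R mice. The BTBR/R mice lay within the range of the B6 mice. The change was -0.00 ± 0.11 (SE, n = 4 per strain, limma adjusted p = 0.985), and its 95% interval ran from 0.840-fold to 1.19-fold. Its sign changed with the mouse left out, with the spike-in scaling giving 0.11 and the scaling to detected probes -0.48. The 8 choroid plexus markers, all detected on all 8 arrays, summed to 3.26 to 43.1 in B6 mice and 7.13 to 27.2 in BTBR/R mice, and none passed the limma test, at an unadjusted p below 0.05 either.

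Crabp1, a cytoplasmic protein that holds retinoic acid and passes it to breakdown, was higher in BTBR/R mice. A_66_P112360 at chr9:54620842-54620901 (plus strand, NM_001284507) gave -0.07, -0.05, -0.05 and 0.13 in B6 mice and 0.42, 0.29, 0.54 and 0.22 in BTBR/R mice. All BTBR/R mice lay above all B6 mice. The change was 0.38 ± 0.08 (SE, n = 4 per strain), or 1.30-fold (95% interval 1.13 to 1.49), with a limma adjusted p of 0.0104, and it was -0.10 under the scaling to detected probes. The second probe, A_52_P185907 at chr9:54616192-54616251 (NM_013496), gave -2.95, -2.79, -2.95 and -2.76 in B6 mice and -2.23, -2.85, -2.49 and -2.52 in BTBR/R mice. BTBR/R replicate 2 lay among the B6 mice. Its change of 0.34 ± 0.13 was of like size but did not pass the test (adjusted p = 0.0767), and it did so without BTBR/R replicate 2 (0.45, adjusted p = 0.0130).

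Of the receptors, Rara was higher in BTBR/R mice by both of its probes. Rara is the broadly expressed RAR that also acts in neuronal dendrites on protein synthesis. A_55_P2095345 at chr11:98836197-98836256 (plus strand, NM_001177302) had scaled log2 signals of 1.51, 1.18, 1.24 and 1.40 in B6 mice and 1.87, 1.71, 1.999 and 1.89 in BTBR/R mice. The lowest BTBR/R mouse lay above the highest B6 mouse. The change was 0.54 ± 0.09 (SE, n = 4 per strain), or 1.45-fold (95% interval 1.24 to 1.69), with a limma adjusted p of 0.00303. It was larger in size than the change of 92.4% of probes detected on all 8 arrays, and it was 0.065 and no longer passed under the scaling to detected probes.

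The second Rara probe, A_55_P2095342, lies at chr11:98835350-98835409, upstream in the same transcript. It gave -2.34, -2.38, -2.58 and -2.27 in B6 mice and -2.05, -1.93, -1.90 and -1.93 in BTBR/R mice. Again the strains did not overlap. Its change was 0.44 ± 0.08 (1.36-fold, adjusted p = 0.00299), and -0.03 under the scaling to detected probes. These probes read 1 gene in the same mice and are not independent samples.

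Rarb, the RAR that is most abundant in the striatum and is itself switched on by retinoic acid, had 4 probes. The lead probe A_51_P202440 at chr14:17263511-17263570 (minus strand, NM_011243) gave 1.72, 1.93, 1.94 and 1.75 in B6 mice and 1.79, 1.65, 1.71 and 1.64 in BTBR/R mice. BTBR/R replicate 1, the 6-month-old mouse, lay within the B6 range and the other BTBR/R mice lay below it. The change was -0.14 ± 0.07 (limma adjusted p = 0.170, 95% interval -0.30 to 0.03), and -0.02 (adjusted p = 0.864) under the spike-in scaling. Under the scaling to detected probes, where 84.7% of all detected probes passed as lower, it was -0.61 (adjusted p = 0.000989). The neighbouring A_55_P2730981 at chr14:17263889-17263947 (NM_001289760) ranged from -0.25 to -0.05 in B6 mice and from -0.62 to -0.16 in BTBR/R mice. Its change was -0.20 ± 0.10 (adjusted p = 0.155), -0.68 (adjusted p = 0.00199) under that scaling and -0.09 (adjusted p = 0.612) under the spike-in scaling. Without BTBR/R replicate 2, its lowest mouse, it was -0.12 (adjusted p = 0.276).

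The remaining Rarb probes lie further upstream in the gene. A_55_P2099585 at chr14:17651424-17651483 (NM_001289761) gave -3.75, -3.78, -3.77 and -4.14 in B6 mice and -3.29, -2.89, -1.68 and -3.52 in BTBR/R mice. The strains did not overlap, but the BTBR/R mice spread widely, with an SD of 0.82 against 0.19. The change was 1.02 ± 0.38 and did not pass the test (adjusted p = 0.0716), while without BTBR/R replicate 3, the highest mouse, it was 0.63 and passed (adjusted p = 0.0325). Without BTBR/R replicate 4, the lowest BTBR/R mouse, it was 1.24 and also passed (adjusted p = 0.0440). A_65_P00940 at chr14:17380078-17380137 (AK054178) was detected on no array, at -7.59 to -7.29 in B6 mice and -6.24 to -5.82 in BTBR/R mice, and belonged to the 67.7% of undetected probes called higher.

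The promoter of Rarb is shown because it holds the paired hexamers through which RAR dimers act on this gene. A direct repeat was searched as a hexamer followed by another after 5 bases, with the hexamer AGGTCA or one of the further forms known for it, of which GGTTCA is one, AGTTCA is another and GGGTCA is the last, on both strands, from 250 bases before to 50 bases after each annotated start in the RefSeq promoters of GRCm38.p6. It was present in 1 of the 14 promoters listed for 8 of the 9 genes, and in 32 of 32851 promoters in all (0.0974%). The single match among the members was that of Rarb, where the element of 17 bases begins 53 bases before the start. It is given in capitals within chr14:16575477-16575569 (GRCm38, minus strand), and the coordinates are of another build than those of the probes.
Rarb promoter: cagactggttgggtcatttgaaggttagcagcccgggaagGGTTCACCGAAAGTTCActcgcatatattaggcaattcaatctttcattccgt

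Rxrg, the RXR restricted largely to the striatum and a few other regions, was read by A_51_P513311 at chr1:169569624-169569683 (plus strand, NM_009107). Its scaled log2 signal was 2.88, 3.001, 3.08 and 3.003 in B6 mice and 2.84, 2.65, 2.99 and 2.74 in BTBR/R mice. BTBR/R replicate 3 lay within the B6 range and the other BTBR/R mice below it. The change was -0.19 ± 0.08 (limma adjusted p = 0.124, 95% interval -0.38 to 0.01), and -0.07 (adjusted p = 0.627) under the spike-in scaling. Without BTBR/R replicate 3 it was -0.25 with an adjusted p of 0.0420. Under the scaling to detected probes, where 84.7% of all detected probes passed as lower, it was -0.66 with an adjusted p of 0.000767.

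The tissue label was checked on 14 markers of striatal projection neurons, all of which were detected on all 8 arrays. Their summed linear signal was 225 to 239 in B6 mice and 205 to 235 in BTBR/R mice. Of the 14, 13 did not pass the test, among them Drd1 (0.02), Drd2 (-0.01), Adora2a (0.02) and Ppp1r1b (-0.06). Pde10a, the phosphodiesterase of striatal projection neurons, was called, at 3.87 to 3.96 in B6 mice and 2.76 to 2.94 in BTBR/R mice, a change of -1.07 ± 0.06 (2.09-fold lower, limma adjusted p = 2.49e-05), and it was -0.95 under the spike-in scaling. The 7 cortical excitatory markers summed to 30.6 to 35.7 in B6 mice and 33.3 to 37.2 in BTBR/R mice, with Neurod2 higher (0.19) and Rorb lower (-0.39) at an adjusted p below 0.05 (limma). Both sets of sums overlap between strains and were not tested against the values of Rarb and Rxrg.

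The astrocyte and layer 5 marker sums did not overlap between the strains. The 7 astrocyte markers summed to a linear signal of 294 to 333 in B6 mice and 236 to 271 in BTBR/R mice, with 3 of the 7 (Aqp4, Aldh1l1 and Aldoc) lower at an adjusted p below 0.05, against 13.9% of all detected probes, and a median change of -0.18. Without Aldoc the sums were 37.7 to 41.5 and 32.0 to 38.0, and the highest BTBR/R mouse reached the lowest B6 mouse. The 6 markers of cortical layer 5 neurons summed to 38.4 to 44.3 in B6 mice and 32.4 to 37.6 in BTBR/R mice, with Crym lower and Fezf2 higher at that threshold. Without Crym these sums were 22.8 to 26.1 and 22.3 to 24.7 and overlapped. All of these markers were detected on all 8 arrays, none was called at 2-fold, and their part in the values of the retinoic acid genes was not tested.

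Cyp26b1, the cytochrome that oxidises retinoic acid and limits its reach in the brain, was higher in BTBR/R mice. A_51_P501844 at chr6:84521952-84522011 (minus strand, NM_175475) gave 0.58, 0.63, 0.63 and 0.83 in B6 mice and 1.09, 1.20, 1.15 and 1.19 in BTBR/R mice. The strains were separate, and the SD was 0.11 in B6 mice and 0.05 in BTBR/R mice. The change was 0.49 ± 0.07 (SE, n = 4 per strain), or 1.41-fold (95% interval 1.26 to 1.57), with a limma adjusted p of 0.000738. It was larger in size than the change of 91.2% of probes detected on all 8 arrays, it lay between 0.46 and 0.55 in the comparisons that left out 1 mouse, and under the scaling to detected probes it was 0.020 and did not pass.

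**Figure D3:**
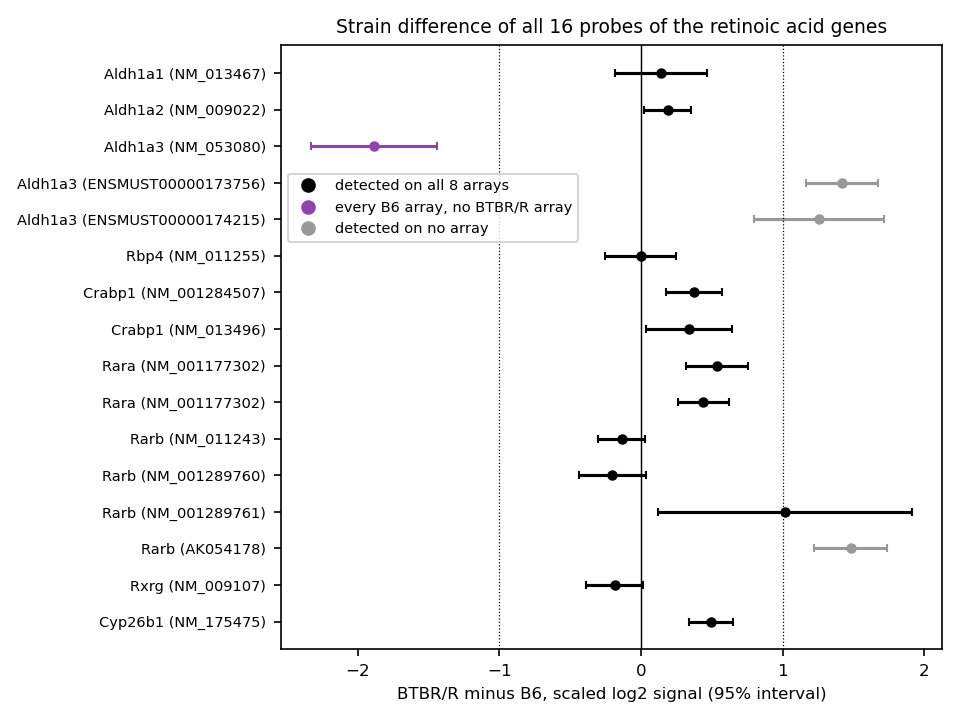
Change between the strains (BTBR/R minus B6, scaled log2 signal) of all 16 probes of the 9 genes, with 95% intervals from limma and dotted lines at 2-fold. Black points are probes detected on all 8 arrays, the purple point is the Aldh1a3 probe detected in the B6 mice only, and grey points were detected on no array. Black intervals above 0 are those of Aldh1a2, both Crabp1 probes, both Rara probes, 1 Rarb probe and Cyp26b1, and all changes are 0.47 lower with arrays scaled to their detected probes, where those of Aldh1a1, Aldh1a2, both Crabp1 probes and the second Rara probe turn negative.

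The other genes of the pathway were counted by lead probe in lists given by function. Of 13 genes of retinol transport, storage and binding, 12 had a probe and 7 could be detected in every mouse. Of these, limma called 1 lower, against 1.16% of all probes detected on all 8 arrays, and 0 higher, against 1.04%. Their median change was 0.14, and at an unadjusted p below 0.05, 2 were higher, against 17.7%, and 2 lower, against 18.2%. At an adjusted p below 0.05 of any size, 1 of the 7 was higher, the fatty acid and retinoic acid carrier Fabp5 (0.23), against 13.0% of all detected probes, and 2 were lower, against 13.9%, namely Stra6 and Bco2, which cleaves carotenoids (-0.50). The 3 genes detected on no array included Lrat and Bco1, which were called higher like most undetected probes.

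Stra6, the membrane receptor that takes up retinol from Rbp4, was read by A_51_P471177 at chr9:58000379-58000990 (mm9, plus strand, NM_009291). It gave -0.52, -0.55, -0.09 and -0.75 in B6 mice and -1.57, -2.11, -1.67 and -1.77 in BTBR/R mice. All BTBR/R mice lay below all B6 mice. Stra6 fell by 1.30 ± 0.17 on the log2 scale, 2.46-fold lower in BTBR/R mice (adjusted p = 0.000595), and it was not called with normexp correction, where the change was -0.97.

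Of 20 enzymes that interconvert retinol and retinaldehyde or act on retinaldehyde, all had a probe and 10 could be detected in every mouse. Among the 10, limma called 1 higher, against 1.04% of all detected probes, and 0 lower, against 1.16%. The reductase Dhrs4 (-0.29) was the 1 gene lower at an adjusted p below 0.05 of any size, against 13.9%, and the median change was 0.02. Rdh10, the enzyme that makes most retinaldehyde in embryos, had a change of 0.07 (adjusted p = 0.420). The called gene was Rdh13, a mitochondrial retinaldehyde reductase. Its lead probe A_55_P2916011 at chr7:4377274-4377333 (minus strand, NM_001290411) gave 1.45, 1.33, 1.38 and 1.45 in B6 mice and 2.41, 2.41, 2.47 and 2.40 in BTBR/R mice.

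The strains were far apart for that probe relative to their spread, with a change of 1.02 ± 0.05, or 2.03-fold (adjusted p = 1.54e-05). The Rdh13 value stood close to the 2-fold threshold and fell below it without B6 replicate 2 (0.99), with median scaling (0.99) and with the scaling to detected probes (0.55). Of the other Rdh13 probes, A_51_P513072 (chr7:4377788-4377847) changed by 0.91 ± 0.07 (adjusted p = 2.76e-05) and A_52_P269334 (chr7:4392160-4392219) by 0.37 ± 0.09 (adjusted p = 0.0167). The last, A_55_P2183217, was detected on 1 B6 array and did not pass (0.33, adjusted p = 0.588).

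**Figure D4:**
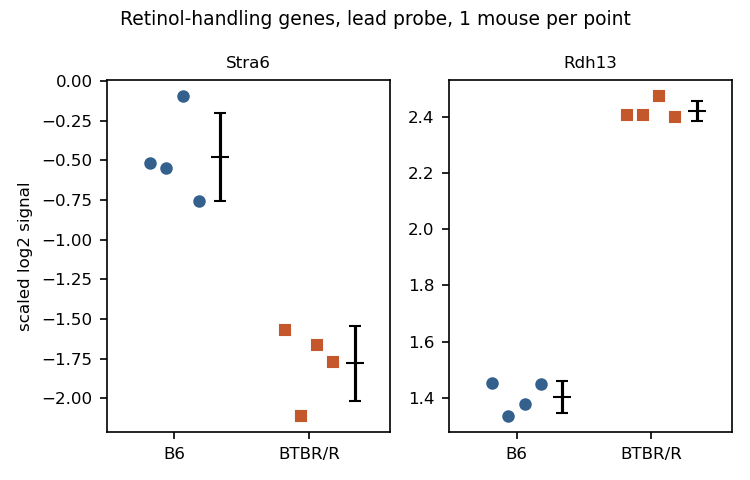
Scaled log2 signal per mouse of the lead probes of the retinol receptor Stra6 and the reductase Rdh13, with circles for B6, squares for BTBR/R and the mean and SD of 4 mice beside them. Each panel has its own axis. The 4 BTBR/R mice lie below all B6 mice for Stra6 and above them for Rdh13, with changes of -1.30 and 1.02.

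All 16 other retinoid receptors and coregulators were detected on all 8 arrays, and limma called none, against 2.20% of all detected probes. At an unadjusted p below 0.05, 4 of the 16 were higher, against 17.7%, and 0 lower, against 18.2%. Med1, a Mediator subunit that binds nuclear receptors, was the 1 gene that passed at an adjusted p below 0.05 of any size, at 0.43 (adjusted p = 0.000243), against 13.0% of all detected probes that were higher at that threshold. The median change of the list was 0.05, and the receptors Rarg (0.05), Rxra (0.04) and Rxrb (-0.01) did not pass. Of the other breakdown enzymes, Cyp26a1 was detected on no array and Cyp26c1 on 1 B6 array.

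Of 17 genes known as targets of retinoic acid, 16 had a probe and 11 could be detected in every mouse. Of the 11, 1 was called lower, the Stra6 already given, against 1.16% of all detected probes. At an adjusted p below 0.05 of any size Stra6 was also the 1 lower gene, against 13.9%, and Rarres1 (0.45) and Meis1 (0.37) were the 2 higher ones, against 13.0%. At an unadjusted p below 0.05, 3 were higher, against 17.7%, and 2 lower, against 18.2%. The median change was 0.05. Of the rest, Rarres2 (-0.26, adjusted p = 0.0512), Dhrs3 (0.11, adjusted p = 0.109), Tgm2 (-0.04, adjusted p = 0.772) and Nrip1 (0.19, adjusted p = 0.0666) did not pass.

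Aldh1a2, Crabp1 and Stra6 all lie on chromosome 9, at mm9 positions from 54616192 to 71143990. Within 1000000 bases on each side, 2 of 41 detected probes around the Stra6 probe (4.88%), 1 of 27 around the Aldh1a2 probe (3.70%) and 0 of 32 around the Crabp1 probe were called, against 2.20% over all detected probes. Around the Rdh13 probe 6 of 86 were called (6.98%), and around the Rara and Cyp26b1 probes 1 of 73 and 2 of 37. Sequence variants between the strains under the probes were not analysed here.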

How the data were processed

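RNA of 8 mice was hybridised to Agilent 1-colour mouse arrays of 60-base probes. The authors deposited the intensity of every spot from Agilent Feature Extraction 10.7.3.1 (submitters' processing notes), after subtraction of background and detrending, where the software puts a surrogate in place of low signals. Besides these the authors deposited GeneSpring's log2 values. On each array at least 99.97% of these differed from the log2 processed intensity by 1 fixed offset, within 0.01. The members and gene lists were chosen with earlier results of these data known. Control spots and outlier flags were left out, spots of a probe averaged, and log2 processed intensity scaled by the 75th percentile of each array. Strains were compared with limma 3.58.1 in R 4.3.3. The Benjamini-Hochberg adjustment covered 56605 probes, with calls at adjusted p below 0.05 and 2-fold, and the fit was tested on simulated data. Tables were made with pandas 2.3.3 under Python 3.11.15, with scipy 1.17.1 for exact tests and matplotlib 3.10.9 for plots. The lead probe of a gene was that detected on most arrays, then the brightest. Genes named were all 9 members, each called gene of the pathway lists that was detected on all 8 arrays or on every array of 1 strain, and called markers; genes named beyond these were chosen after their values were seen. Alternatives were a floor, normexp (offset 50), 2 filters on dim probes, quantile normalization, 3 other scalings, limma with trend and robust, the methods' t-test, a replicate block, the authors' log2 values and leaving out each mouse. Of the members' 16 probes, 13 had a RefSeq accession, and all 13 carried the same symbol in the RefSeq table. Probe positions are the arrays' mm9 annotation. The number of arrays limits the precision. No probe was saturated. A gene that belongs to the pathway lists is not reported here and was left out of their counts.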

Additional observations from a re-analysis of the deposited data

Results flagged for a closer look

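Of 38 sets of 4 mice of 1 strain that were examined for a mouse far from the others, 3 stood out, and chance gives about 1 in 20. For the Crabp1 probe A_66_P112360, B6 replicate 4 (0.13) lay apart from the other B6 mice (-0.07 to -0.05), with a gap of 0.893 of the range of the 4 mice. For the upstream Rarb probe A_55_P2099585, B6 replicate 4 (-4.14) lay below the others (-3.78 to -3.75), with a gap of 0.935 of the range. For the Rdh13 probe A_55_P2916011, BTBR/R replicate 3 (2.47) lay above the others (2.40 to 2.41), with a gap of 0.872 of the range.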

How the results depend on the processing

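The count of called probes over the whole array was 12697, and it was 789 with the floor, 563 with normexp, 631 and 1557 with the filters to probes detected on all 8 arrays and on every array of a strain, 2200 with quantile normalization, 7436 with the scaling to detected probes, 11777 with the methods' t-test, and 11792 to 12929 when 1 mouse was left out. Of the members' probes 4 were called (3 of them undetected), and 0, 0, 0, 1, 1 and 2 under the first 6 of these settings and 4 to 5 with 1 mouse left out. At an adjusted p below 0.05 of any size 8 passed, and 4 with the floor, 4 and 5 with the filters and 8 to 10 with 1 mouse left out. The scaling to detected probes gave -0.33 for Aldh1a1, -0.28 for Aldh1a2, -0.48 for Rbp4, -0.10 for Crabp1, 0.065 for Rara, -0.61 for Rarb, -0.66 for Rxrg and 0.020 for Cyp26b1, with adjusted p below 0.05 for Aldh1a1, Aldh1a2, Rbp4, Rarb and Rxrg, and by its construction shifts every probe alike. Aldh1a2 passed with trend and robust (0.19), with spike-in scaling (0.30) and without B6 replicate 3 (0.25). Aldh1a3 was 0 with the floor, since both strains then lie at it, and -0.27 with normexp, where the cause was not tested. Rbp4 turned to 0.11 with spike-in scaling.

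With 1 mouse left out, changes ranged from 0.06 to 0.25 for Aldh1a1, 0.14 to 0.25 for Aldh1a2, -0.094 to 0.053 for Rbp4, 0.32 to 0.42 for Crabp1, 0.49 to 0.60 for Rara, -0.17 to -0.10 for Rarb, -0.25 to -0.13 for Rxrg and 0.46 to 0.55 for Cyp26b1. Replicate numbers are shared between the strains, but same-numbered mice did not deviate together (correlations 0.003, -0.07, -0.04 and 0.16 over 28547 probes), so the numbers do not pair them. With the replicate block the Crabp1 change was 0.38 with an adjusted p of 0.0572, 7 members' probes passed instead of 8, and 11693 probes were called. Signals near background limit Aldh1a3, the upstream Rarb probe and all undetected probes.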
